A study of Mus musculus with 9 samples.

Results

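Messenger RNA of Myc and of 35 genes of ribosome biogenesis was examined in OT-II thymocytes, as RPKM, which scales the reads of a gene by the length of its exons and by library depth. The 36 genes were chosen by symbol, with 1 transcription factor and the proteins that make, modify, cut and assemble ribosomal RNA, and all 36 were found among the 24594 genes of the table. The cells were semimature CD4 single-positive (SP4) thymocytes, sorted as CD4+ CD8- CD69+ Vα2+ Vβ5+ from mixed bone marrow chimeras. A chimera is an irradiated host rebuilt with donor marrow, here for 4.7 weeks with a mix of OT-II control, OT-II double knockout (DKO) and nontransgenic wild-type (WT) marrow. OT-II is a transgenic T cell receptor specific for an ovalbumin peptide, and cells of both genotypes carried it. OT-II control donors were Nr4a1+/+ Nr4a3+/+ and F1 of BoyJ and B6.Cg-Tg(TcraTcrb)425Cbn/J mice, and DKO donors were Nr4a1-/- Nr4a3-/- on C57BL/6. WT hosts are taken here as BoyJ mice without ovalbumin, although the study's methods also name WT mice from the same F1 cross as RIPmOVA mice. RIPmOVA hosts were F1 of BoyJ and C57BL/6 mice of the Tg(Ins2-TFRC/OVA)296Wehi/WehiJ line, in which the rat insulin promoter drives membrane ovalbumin in pancreatic islets and in medullary thymic epithelium, so that OT-II cells meet a self-antigen. There were 2 OT-II and 3 DKO libraries from WT hosts, and 2 OT-II and 2 DKO libraries from RIPmOVA hosts. OT-II and DKO cells with the same number came from the same chimera, and DKO library 3 of the WT hosts had no OT-II partner. Cells that antigen had already deleted are not in a sort of surviving cells. The genetic backgrounds of the 2 donors differ, which cannot be told apart from the Nr4a genotype. Nor can a difference of strain between the hosts, if there was one, be told apart from the antigen.

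Ribosome production starts in the nucleolus, where RNA polymerase I copies ribosomal DNA into a long precursor. Small nucleolar ribonucleoproteins guide the chemical modification of the precursor, and large processomes cut it and fold it into the small and the large subunit. Myc, which binds DNA with Max at E-box motifs, is known as an activator of many of these genes, and T cells raise both Myc and ribosome production when they are activated and grow.

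Libraries held 15520000 to 25050000 exonic reads, a depth worked out from the whole-read steps of low RPKM values, and every member was above 1 RPKM in all 9 libraries. Cd4 was at 189 to 241 RPKM and Cd8a at 1.76 to 7.60 RPKM, so the sorted subset held its defining transcript, although Cd8b1 stood at 54.5 to 96.4 RPKM. Of other cells, 6 myeloid markers summed to 21.4 and 11.4 RPKM in OT-II libraries of RIPmOVA hosts and to 3.07 to 10.6 RPKM elsewhere. Lyz2 made up most of the 2 higher sums, at 18.7 and 8.44 RPKM, against 2.12 and 2.83 RPKM in DKO-labelled libraries of RIPmOVA hosts. The sum of 5 B cell markers was 2.72 to 10.5 RPKM. For 5 markers of thymic epithelium it was 2.68 to 11.7 RPKM, highest in DKO-labelled libraries of RIPmOVA hosts. Epcam made up most of it there, at 10.2 and 5.78 RPKM. The part of such cells in the results was not tested. Gene-level values of the targeted genes were on average not lower in DKO than in OT-II libraries, which alone does not settle the genotype. Nr4a1 was at 60.1 to 87.7 RPKM in DKO and 60.7 to 86.1 RPKM in OT-II libraries of WT hosts, and at 235 to 282 RPKM against 229 to 260 RPKM in RIPmOVA hosts. Nr4a3 was at 14.1 and 16.5 RPKM in DKO and 3.72 and 5.66 RPKM in OT-II libraries of RIPmOVA hosts. Whether the deleted exons are read was not tested, and the libraries are called DKO-labelled from here on. Reads on 1499 sensory receptor genes, which thymocytes are not known for, differed between libraries. They summed to 483 and 649 RPKM in DKO-labelled and to 204 and 74.6 RPKM in OT-II libraries of RIPmOVA hosts. In WT hosts they were at 439 RPKM in OT-II library 1, at 453 RPKM in DKO-labelled library 2, and at 115 to 165 RPKM in the other 3 libraries.

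As a group, the 36 genes stood higher in DKO-labelled than in OT-II thymocytes of both hosts. Differences between hosts were smaller, with OT-II sums somewhat lower in RIPmOVA hosts and DKO-labelled sums overlapping. The summed level of the 36 genes was 702 and 690 RPKM in OT-II libraries of WT hosts. It was 804, 732 and 813 RPKM in DKO-labelled libraries of WT hosts. It was 668 and 654 RPKM in OT-II libraries and 849 and 770 RPKM in DKO-labelled libraries of RIPmOVA hosts. All 5 DKO-labelled sums lay above all 4 OT-II sums. In bulk RNA, fewer cells of a type and less RNA per cell cannot be told apart. DKO-labelled library 1 of RIPmOVA hosts held the highest value of 16 members, and OT-II library 2 of the same hosts held the lowest value of 14 members. The same counts were not made over all genes, so these need not be particular to the members. Median log2 values over all genes kept differed much less, from 2.77 to 2.83 across libraries.

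**Figure D1:**
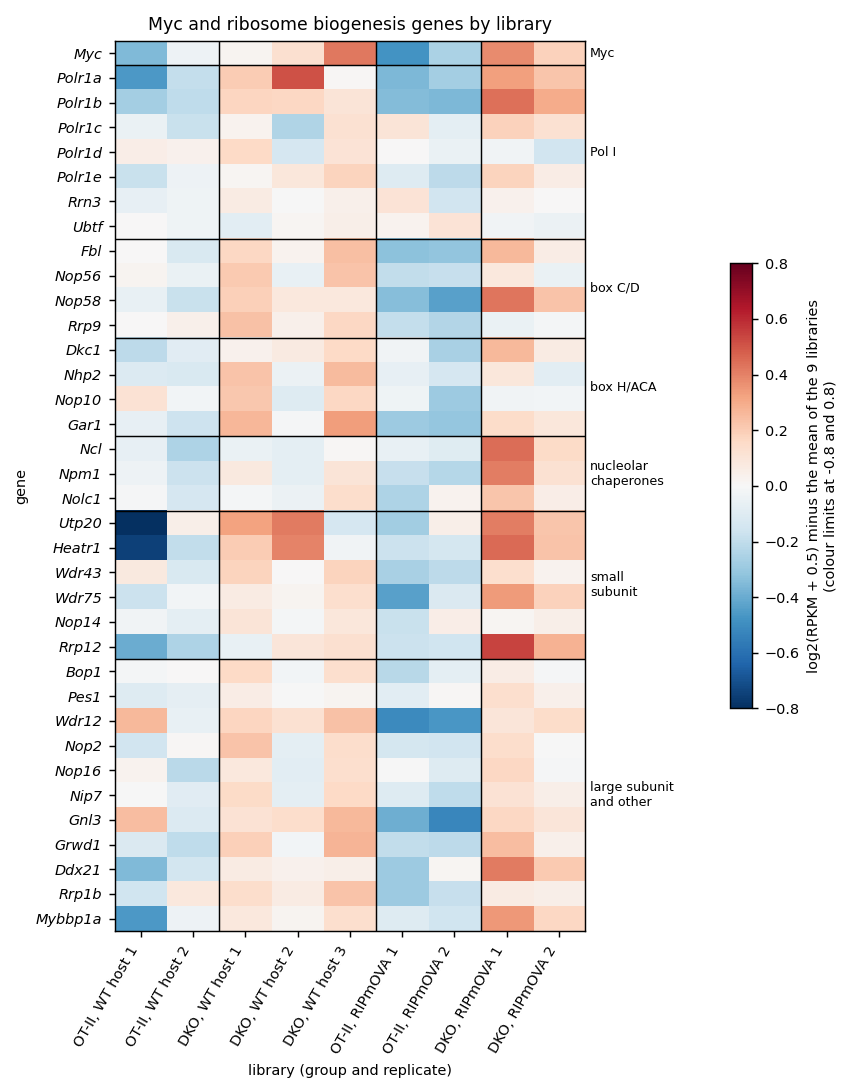
Heat map of the 36 genes (vertical, by role) in the 9 libraries (horizontal, by group and replicate), coloured by log2(RPKM + 0.5) minus the gene's mean over the libraries. The DKO-labelled RIPmOVA columns are red for most genes and the OT-II RIPmOVA columns are blue, with Ubtf and Polr1d near white throughout, and OT-II library 1 of WT hosts is dark blue for Utp20 and Heatr1.

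Differences between groups were tested gene by gene with limma on log2(RPKM + 0.5) over 11569 genes, and p values were adjusted by Benjamini-Hochberg over all of them. With the call of an adjusted p of 0.05 or less and an absolute log2 fold change of 1 or more, 0 of 36 members were called in any of the comparisons. Of all genes tested, 1.07% were called between DKO-labelled and OT-II libraries in RIPmOVA hosts and 0.0605% in WT hosts. Between hosts, 1.23% were called for OT-II and 1.68% for DKO-labelled cells, and 0.0173% were called for the interaction of host and genotype. At an adjusted p of 0.05 at any size, 2 members rose in DKO-labelled over OT-II libraries of RIPmOVA hosts, Polr1b and Nop58, or 5.56% of members against 0.908% of all genes. No member fell at this threshold there, against 1.31% of all genes. In WT hosts 0 members passed it, against 0.0173% of all genes higher and 0.0519% lower. Between hosts 0 members passed it, against 1.43% higher and 0.467% lower among OT-II cells, and 2.32% higher and 1.03% lower among DKO-labelled cells. The limma counts at an unadjusted p under 0.05 follow with each comparison.

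The comparison of genotypes in RIPmOVA hosts asks how cells of each genotype that meet the self-antigen differ. In it, 34 of 36 members had a log2 fold change above 0, against 56.5% of all genes, and the median was 0.31 against 0.04 for all genes tested. At an unadjusted p under 0.05 there were 20 members (55.6%), against 21.4% of all genes. Both DKO-labelled libraries lay above both OT-II libraries for 30 members (83.3%), against 34.6% of all genes, and below them for 1 member, Ubtf, against 24.4% of all genes. The differences ran from -0.10 for Ubtf to 0.72 for Polr1b on the log2 scale. The 2 DKO-labelled libraries were also those with more sensory receptor reads. With that sum as a covariate the median was 0.40 and 0 members passed the adjusted p, and its part in the result was not tested beyond this fit.

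In WT hosts, where OT-II cells mature without ovalbumin, the same sign was seen with a smaller median. The log2 fold change of DKO-labelled over OT-II libraries was above 0 for 35 of 36 members, against 51.3% of all genes, with a median of 0.16 against 0.01. By limma, 0 members passed the adjusted p and 13 (36.1%) had an unadjusted p under 0.05, against 7.89% of all genes. All 3 DKO-labelled libraries lay above both OT-II libraries for 19 members (52.8%), against 10.5% of all genes, and below them for 0 members, against 10.3%. The member with the highest value was Utp20 (0.70 ± 0.30, SE) and the lowest was Polr1d, at 0.00 ± 0.11. The genotype comparisons in the 2 hosts share no library. Proliferation genes moved the same way: 15 of 15 tested were above 0 in both hosts, with medians of 0.55 in RIPmOVA and 0.74 in WT hosts, and their part in the members' values was not tested.

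**Figure D2:**
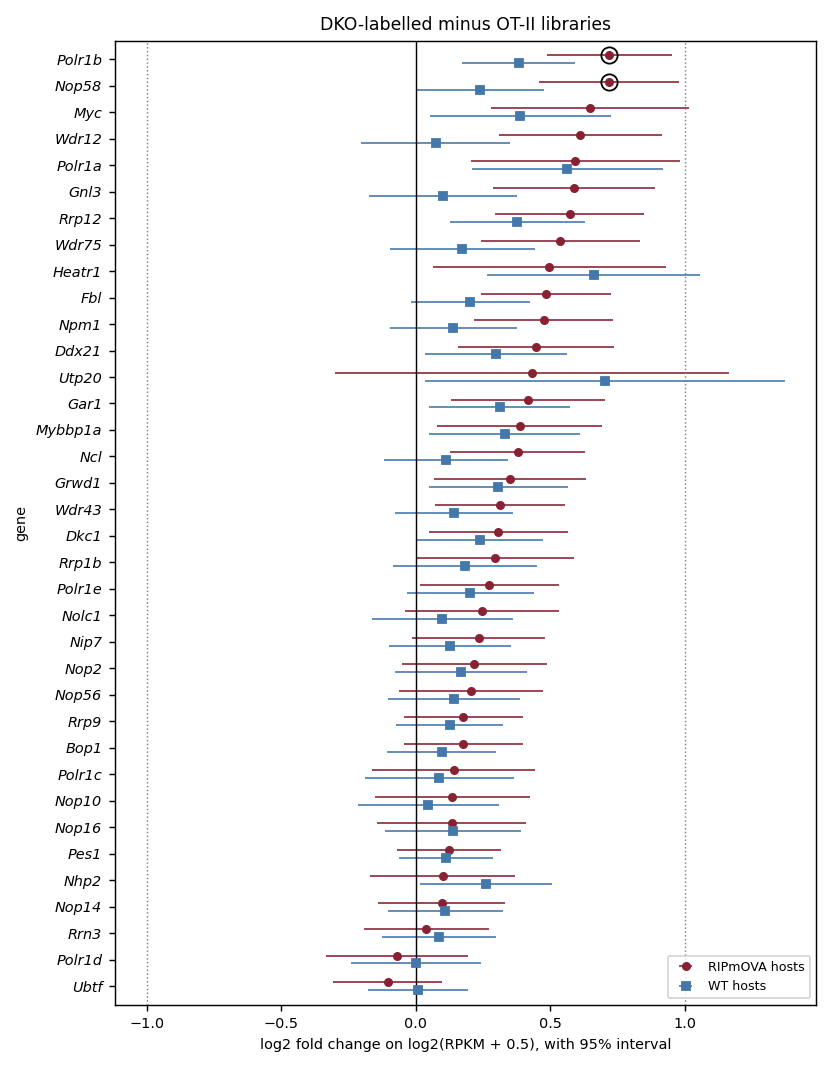
Log2 fold change of DKO-labelled over OT-II libraries (horizontal, on log2(RPKM + 0.5)) for each of the 36 genes (vertical), as circles for RIPmOVA hosts and squares for WT hosts, with 95% intervals as bars. Black rings mark Polr1b and Nop58, the genes with an adjusted p of 0.05 or less, and dotted lines mark a log2 fold change of 1 in either direction, which no point reaches.

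Myc stood higher in each DKO-labelled library than in any OT-II library, without passing the test. It was at 11.3 and 14.2 RPKM in OT-II and 14.8, 16.0 and 19.7 RPKM in DKO-labelled libraries of WT hosts. In RIPmOVA hosts it was at 10.3 and 12.2 RPKM in OT-II and 19.1 and 16.6 RPKM in DKO-labelled libraries. The lowest DKO-labelled value, from a WT host, was just above the highest OT-II value. The log2 fold change of DKO-labelled over OT-II libraries was 0.65 ± 0.16 (SE) in RIPmOVA hosts (limma, adjusted p = 0.0781) and 0.39 ± 0.15 in WT hosts (limma, adjusted p = 0.555). Between hosts, OT-II libraries differed by -0.17 ± 0.16 and DKO-labelled libraries by 0.09 ± 0.15 (limma, adjusted p = 0.701 and 0.774), and the host ranges overlapped in both genotypes. The 95% interval of the OT-II host difference, -0.54 to 0.20, excludes a rise of the size seen between genotypes in RIPmOVA hosts. Myc lies on chromosome 15 at 61985391 to 61990374 on the plus strand (GRCm38), and between 1417 and 4099 reads per library stood behind its values.

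The E-box that Myc and Max bind (CACGTG, the same on both strands) was searched in promoter windows from 250 bases before to 50 bases after each RefSeq start. RefSeq windows were matched for 31 of 36 members, leaving Myc, Fbl, Npm1, Bop1 and Rrp12. The motif occurred in 7 of these members (22.6%), against 8.09% of 27025 genes with such windows. Those 27025 genes were not limited to the 11569 genes tested, so silent genes are among them. Motif shares over the tested genes alone were not computed. The 7 were Nop2, Grwd1, Utp20, Pes1, Mybbp1a, Rrn3 and Wdr43. Their matches are shown because they are the letters Myc is known to read, as 30 bases around each match, from RefSeq on GRCm38.p6, 5′ to 3′ on the strand of the gene, with the motif in capitals:
Nop2, chr6:125131811-125131840, plus strand, 60 bases before the start: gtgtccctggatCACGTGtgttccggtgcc
Rrn3, chr16:13780472-13780501, plus strand, 215 bases before the start: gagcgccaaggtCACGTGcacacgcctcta
Rrn3, chr16:13780639-13780668, plus strand, 48 bases before the start: ttacgctctgctCACGTGggccgcgtcccg
Pes1, chr11:3963965-3963994, plus strand, at the start: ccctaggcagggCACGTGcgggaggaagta
Wdr43, chr17:71616220-71616249, plus strand, after the start: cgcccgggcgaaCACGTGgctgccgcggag
Grwd1, chr7:45830740-45830769, minus strand, after the start: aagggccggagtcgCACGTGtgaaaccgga
Utp20, chr10:88826765-88826794, minus strand, after the start: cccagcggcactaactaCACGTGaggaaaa
Mybbp1a, chr11:72441347-72441376, plus strand, after the start: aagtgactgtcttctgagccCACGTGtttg
The monomer site of Nr4a receptors (AAAGGTCA, either strand) occurred in 1 member, Nhp2 (3.23%), against 1.7% of genes. It is read there on the opposite strand, 139 bases before the start:
Nhp2, chr11:51619623-51619652, plus strand: cgtgcttagatTGACCTTTaactccgcccc
These are matches of letters in a window and do not show binding. In RIPmOVA hosts the 7 genes with an E-box had log2 fold changes of DKO-labelled over OT-II libraries from 0.04 for Rrn3 to 0.43 for Utp20. Their middle value was 0.31, that of Wdr43. All 36 members had a median of 0.31 and ran from -0.10 to 0.72. The part of the motif in these values was not tested.

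Among the 7 genes of RNA polymerase I, the catalytic-core subunits Polr1a and Polr1b had the highest log2 fold changes by genotype, and Rrn3, Ubtf and Polr1d stood near 0 in RIPmOVA hosts. Polr1b, which encodes the second largest core subunit, was at 6.21 and 6.15 RPKM in OT-II and 11.1 and 9.96 RPKM in DKO-labelled libraries of RIPmOVA hosts. In WT hosts it was at 6.55 and 6.91 RPKM in OT-II and 9.09, 9.05 and 8.63 RPKM in DKO-labelled libraries. The genotypes did not overlap in either host, and the 4 OT-II libraries spanned a range of less than 1 RPKM. Polr1b rose 1.65-fold in DKO-labelled cells of RIPmOVA hosts, or by 0.72 ± 0.10 on the log2 scale (SE, 95% interval 0.49 to 0.95, limma, adjusted p = 0.0109). In WT hosts the log2 fold change was 0.38 ± 0.09 (limma, adjusted p = 0.252). The adjusted p in RIPmOVA hosts rose to 0.0864 without OT-II library 1, to 0.0766 without OT-II library 2 and to 0.0628 without DKO-labelled library 1, with log2 fold changes of 0.65 to 0.79 over all omissions.

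Polr1a, the largest core subunit, had a log2 fold change of 0.59 ± 0.17 in RIPmOVA hosts (limma, adjusted p = 0.107) and 0.56 ± 0.16 in WT hosts (limma, adjusted p = 0.338). It was at 3.67 and 4.52 RPKM in OT-II and 6.10, 7.65 and 5.26 RPKM in DKO-labelled libraries of WT hosts, and at 3.97 and 4.25 against 6.70 and 6.19 RPKM in RIPmOVA hosts. Again all DKO-labelled libraries were above all OT-II libraries. Polr1e, a polymerase I-associated factor, had 0.27 ± 0.11 in RIPmOVA hosts. Polr1c and Polr1d, subunits shared with RNA polymerase III, had 0.14 ± 0.14 and -0.07 ± 0.12.

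Rrn3, which recruits polymerase I to the promoter, was at 22.7 and 23.2 RPKM in OT-II and 25.0, 23.8 and 24.5 RPKM in DKO-labelled libraries of WT hosts. In RIPmOVA hosts it was at 25.8 and 21.4 RPKM in OT-II and 24.4 and 23.9 RPKM in DKO-labelled libraries, where the genotypes overlapped. Its log2 fold change there was 0.04 ± 0.10, and the sign turned under median-of-ratios scaling. Ubtf, which binds ribosomal DNA along its length, was at 20.8 and 20.2 RPKM in OT-II and 19.5, 21.0 and 21.4 RPKM in DKO-labelled libraries of WT hosts. It was at 21.1 and 22.4 RPKM in OT-II and 20.3 and 20.1 RPKM in DKO-labelled libraries of RIPmOVA hosts, the 1 member with both DKO-labelled libraries lower. That difference was small, -0.10 ± 0.09 (limma, adjusted p = 0.531).

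The proteins of box C/D particles, which place methyl groups on ribosomal RNA, had log2 fold changes above 0 by genotype in RIPmOVA hosts for 4 of 4 genes. Of all genes 56.5% were above 0 there. Nop58 was the 1 gene of these past the adjusted p. Nop58, a core scaffold of these particles, was at 5.68 and 5.30 RPKM in OT-II and 10.05 and 8.69 RPKM in DKO-labelled libraries of RIPmOVA hosts. In WT hosts it was at 7.02 and 6.42 RPKM in OT-II and 8.45, 7.80 and 7.81 RPKM in DKO-labelled libraries. OT-II cells of RIPmOVA hosts held the lowest values and DKO-labelled cells of the same hosts the highest. Nop58 rose 1.65-fold in DKO-labelled cells of RIPmOVA hosts, or by 0.72 ± 0.12 on the log2 scale (SE, 95% interval 0.46 to 0.98, limma, adjusted p = 0.0165), against 0.24 ± 0.11 in WT hosts (limma, adjusted p = 0.623). The adjusted p in RIPmOVA hosts was 0.0968 without OT-II library 1, 0.125 without OT-II library 2 and 0.0884 without DKO-labelled library 1. Nop58 holds 4 small nucleolar RNA genes in its bounds on its own strand (Snord11, Snord70, Gm26287 and Gm26293), and reads from them cannot be told apart from its own here.

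Polr1b and Nop58 are the members that passed the test, so the sequence upstream of each is given as 200 bases that end 50 bases before the RefSeq start (GRCm38.p6, plus strand). Neither the E-box nor the Nr4a site, the letters searched above, occurs in their 300-base windows, so no base is in capitals:
Polr1b, chr2:129100746-129100945: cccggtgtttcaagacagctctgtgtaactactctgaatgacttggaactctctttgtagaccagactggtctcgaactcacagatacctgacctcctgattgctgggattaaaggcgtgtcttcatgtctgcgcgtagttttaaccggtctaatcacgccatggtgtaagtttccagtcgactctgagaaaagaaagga
Nop58, chr1:59684756-59684955: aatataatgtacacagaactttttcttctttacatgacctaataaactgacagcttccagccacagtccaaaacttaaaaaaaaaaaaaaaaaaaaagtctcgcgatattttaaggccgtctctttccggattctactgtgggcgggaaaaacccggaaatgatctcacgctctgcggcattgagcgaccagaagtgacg
The GC content of these stretches was 47.0% for Polr1b and 40.5% for Nop58. The Polr1b gene runs from 129100995 to 129126594 on chromosome 2 and Nop58 from 59684971 to 59719044 on chromosome 1, both on the plus strand and protein-coding.

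Fbl, the methyltransferase of the same particles, was at 24.7 and 24.8 RPKM in OT-II and 37.4 and 32.5 RPKM in DKO-labelled libraries of RIPmOVA hosts. It was at 31.2 and 28.6 RPKM in OT-II and 34.9, 31.7 and 36.8 RPKM in DKO-labelled libraries of WT hosts. The genotypes did not overlap in either host, and the log2 fold change in RIPmOVA hosts was 0.48 ± 0.11 (limma, adjusted p = 0.0562). Nop56, the partner of Nop58, was at 13.4 and 13.5 RPKM in OT-II and 16.3 and 14.8 RPKM in DKO-labelled libraries of RIPmOVA hosts, and at 15.6 and 14.8 against 17.9, 14.7 and 18.1 RPKM in WT hosts. Its log2 fold change in RIPmOVA hosts was 0.21 ± 0.12, and 5 small nucleolar RNA genes lie inside it. Rrp9, a protein of the U3 particle, had 0.18 ± 0.10.

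**Figure D3:**
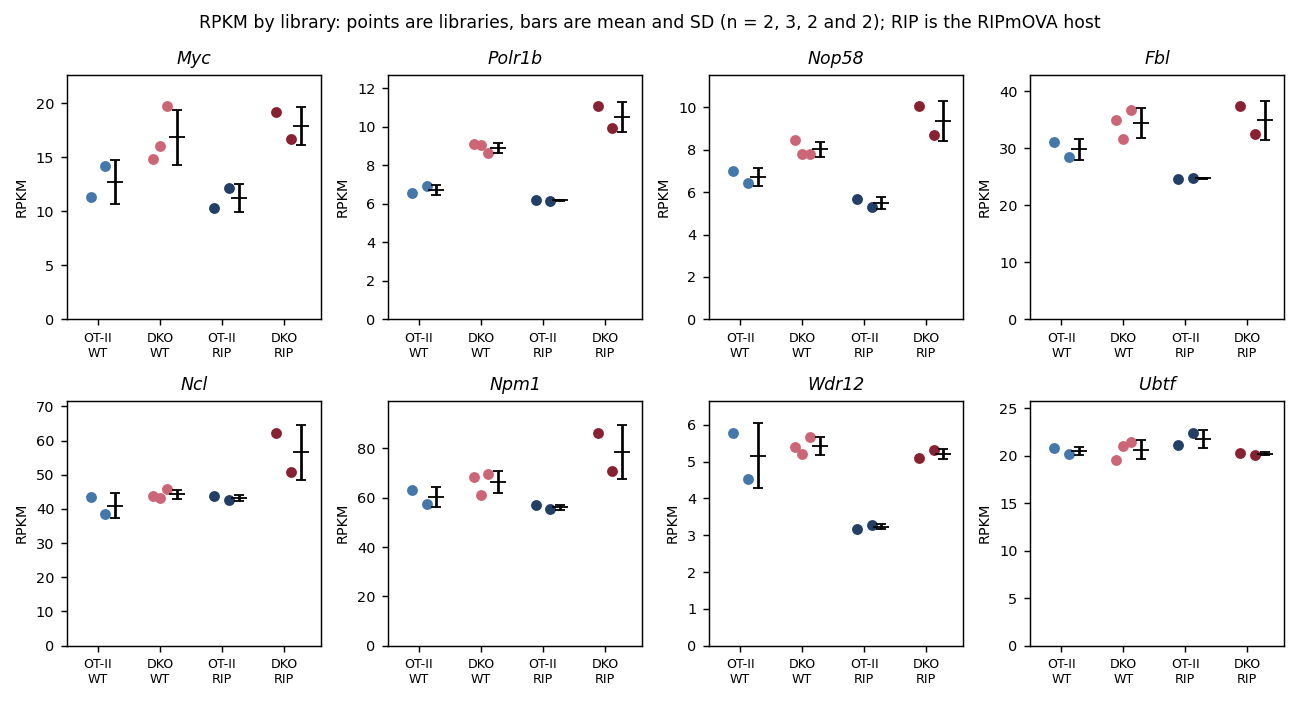
RPKM (vertical, from 0) of 8 of the genes in each library (points) of the 4 groups (horizontal), with the group mean and SD as black bars. For Myc, Polr1b, Nop58 and Fbl all DKO-labelled points lie above the OT-II points of the same host, Wdr12 is low in OT-II libraries of RIPmOVA hosts alone, and Ubtf is near 20 RPKM in every group.

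Box H/ACA particles, which turn uridine into pseudouridine, had log2 fold changes above 0 for 4 of 4 genes in RIPmOVA hosts, against 56.5% of all genes, with a median of 0.22. By limma 0 passed the adjusted p, and Dkc1 and Gar1 had an unadjusted p under 0.05, against 21.4% of all genes. Nop10, the most abundant member, was at 111 and 101 RPKM in OT-II and 119, 95.5 and 115 RPKM in DKO-labelled libraries of WT hosts, and at 99.99 and 83.7 against 100.5 and 100.7 RPKM in RIPmOVA hosts. Nhp2 was at 26.9 and 26.6 RPKM in OT-II and 34.1, 28.1 and 34.7 RPKM in DKO-labelled libraries of WT hosts, and at 27.8 and 26.4 against 30.9 and 27.4 RPKM in RIPmOVA hosts. Both genes thus varied as much among libraries of a group as between genotypes in RIPmOVA hosts, with log2 fold changes of 0.14 ± 0.13 for Nop10 and 0.10 ± 0.12 for Nhp2. Dkc1, the pseudouridine synthase, had 0.31 ± 0.11, and Gar1 had 0.42 ± 0.13 (limma, adjusted p = 0.117).

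Npm1, a nucleolar chaperone, and Ncl, an RNA-binding protein of the nucleolus, were highest in DKO-labelled cells of RIPmOVA hosts. Npm1 was at 56.9 and 55.3 RPKM in OT-II and 86.3 and 70.7 RPKM in DKO-labelled libraries of RIPmOVA hosts. In WT hosts it was at 63.0 and 57.4 RPKM in OT-II and 68.3, 61.3 and 69.6 RPKM in DKO-labelled libraries, which overlapped. Its log2 fold change was 0.48 ± 0.11 in RIPmOVA hosts (limma, adjusted p = 0.0706), and DKO-labelled libraries of the 2 hosts did not overlap. Ncl was at 43.7 and 42.6 RPKM in OT-II and 62.3 and 50.8 RPKM in DKO-labelled libraries of RIPmOVA hosts. In WT hosts it was at 43.5 and 38.4 RPKM in OT-II and 43.9, 43.1 and 45.8 RPKM in DKO-labelled libraries. Ncl had 0.38 ± 0.11 for genotype in RIPmOVA hosts (limma, adjusted p = 0.11) and 0.34 ± 0.10 for host in DKO-labelled libraries (limma, adjusted p = 0.12). Without DKO-labelled library 1 of RIPmOVA hosts, the highest for Ncl, these values were 0.233 and 0.197. Nolc1, a chaperone of small nucleolar particles, had 0.25 ± 0.13 for genotype in RIPmOVA hosts.

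Genes of the small subunit processome had log2 fold changes above 0 in RIPmOVA hosts for 6 of 6 genes, against 56.5% of all genes, with a median of 0.47. By limma 0 passed the adjusted p, and 4 had an unadjusted p under 0.05, against 21.4% of all genes. Wdr43 was at 21.0 and 21.8 RPKM in OT-II and 27.8 and 25.7 RPKM in DKO-labelled libraries of RIPmOVA hosts, and at 26.7 and 23.1 against 28.6, 25.3 and 28.7 RPKM in WT hosts. Its log2 fold change was 0.31 ± 0.11 in RIPmOVA hosts, where the genotypes did not overlap. Nop14 was at 16.5 and 19.5 RPKM in OT-II and 19.0 and 19.5 RPKM in DKO-labelled libraries of RIPmOVA hosts, and at 18.4 and 17.8 against 20.2, 18.6 and 20.02 RPKM in WT hosts. Nop14 overlapped between genotypes in RIPmOVA hosts, with 0.10 ± 0.10. Rrp12 was at 9.78 and 9.85 RPKM in OT-II and 16.3 and 13.5 RPKM in DKO-labelled libraries of RIPmOVA hosts, and at 8.27 and 9.25 against 10.6, 11.9 and 12.1 RPKM in WT hosts. It came closest to the threshold among the members that missed it, with 0.57 ± 0.12 (limma, adjusted p = 0.0503). Wdr75 had 0.54 ± 0.13 (limma, adjusted p = 0.0717).

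Utp20 and Heatr1, processome proteins built of HEAT repeats, had genotype differences in WT hosts that depended on 1 library. Utp20 was at 1.83 and 4.51 RPKM in OT-II and 5.55, 5.95 and 3.92 RPKM in DKO-labelled libraries of WT hosts, and at 3.49 and 4.51 against 5.94 and 5.16 RPKM in RIPmOVA hosts. Heatr1 was at 8.21 and 12.3 RPKM in OT-II and 16.4, 18.8 and 13.8 RPKM in DKO-labelled libraries of WT hosts, and at 12.5 and 12.8 against 19.5 and 16.7 RPKM in RIPmOVA hosts. OT-II library 1 of WT hosts was the lowest library for both genes. The genotype difference in WT hosts was 0.70 ± 0.30 for Utp20 and 0.66 ± 0.18 for Heatr1. Without OT-II library 1 it was 0.15 and 0.39, and without OT-II library 2 it was 1.25 and 0.94 (limma, adjusted p = 0.0438 and 0.04). Transcript length moved with library as well. The median deviation of 475 genes with a coding transcript of 8000 bases or more was -0.11 on the log2 scale in OT-II library 1, against 0.01 for other genes, and it ran from -0.16 to 0.19 over the 9 libraries. In RIPmOVA hosts the 475 genes were at 0.09 and 0.16 in DKO-labelled and at -0.03 and 0.02 in OT-II libraries. Other genes were there at 0.015 and 0.017 against -0.008 and -0.017. The longest coding transcripts of Utp20 and Heatr1 have 8821 and 6780 bases, so Heatr1 is outside that class. Those of Polr1a, Nop58, Ncl and Wdr12 have 9216, 9507, 8202 and 10012 bases. The part of length in the values of these members was not tested in either host.

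Pes1, Bop1 and Wdr12 form the complex that matures the large subunit. Their values differed in size. Bop1 was at 27.0 and 29.8 RPKM in OT-II and 32.9 and 31.3 RPKM in DKO-labelled libraries of RIPmOVA hosts, and at 31.3 and 31.6 against 35.3, 31.1 and 34.7 RPKM in WT hosts. Pes1 was at 27.1 and 29.01 RPKM in OT-II and 31.6 and 29.6 RPKM in DKO-labelled libraries of RIPmOVA hosts, and at 26.8 and 27.3 against 30.0, 28.7 and 29.2 RPKM in WT hosts. Both had small differences by genotype in RIPmOVA hosts, 0.18 ± 0.10 for Bop1 and 0.13 ± 0.09 for Pes1. Wdr12 was at 3.18 and 3.29 RPKM in OT-II and 5.11 and 5.31 RPKM in DKO-labelled libraries of RIPmOVA hosts, and at 5.78 and 4.53 against 5.395, 5.204 and 5.68 RPKM in WT hosts. Both OT-II libraries of RIPmOVA hosts lay below the other 7 libraries. The log2 fold change of Wdr12 between genotypes was 0.61 ± 0.13 in RIPmOVA hosts (limma, adjusted p = 0.0541), and in WT hosts the genotypes overlapped.

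Gnl3 (nucleostemin, a nucleolar GTPase) was likewise lowest in both OT-II libraries of RIPmOVA hosts, and was picked after its values were seen. It was at 7.18 and 6.51 RPKM in OT-II and 10.8 and 10.3 RPKM in DKO-labelled libraries of RIPmOVA hosts, and at 11.5 and 8.85 against 10.4, 10.6 and 11.6 RPKM in WT hosts. Its log2 fold change was 0.59 ± 0.13 between genotypes in RIPmOVA hosts (limma, adjusted p = 0.0593). The other 7 large subunit and nucleolar genes had log2 fold changes from 0.13 for Nop16 to 0.45 for the RNA helicase Ddx21 in RIPmOVA hosts. Of all 11 genes, 11 were above 0 in both hosts, against 56.5% of all genes in RIPmOVA and 51.3% in WT hosts. By limma 0 of the 11 passed the adjusted p. In RIPmOVA hosts 6 had an unadjusted p under 0.05, against 21.4% of all genes.

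Between hosts, the question is how cells of a genotype differ between hosts with and without the self-antigen. In OT-II libraries 14 of 36 members had a log2 fold change above 0 in RIPmOVA over WT hosts, against 46.5% of all genes, with a median of -0.06 against -0.02. By limma 0 passed the adjusted p, and 5 (13.9%) had an unadjusted p under 0.05, near the 14.3% of all genes. The 5 were Wdr12 (-0.59 ± 0.13, adjusted p = 0.0679), Gnl3 (-0.53 ± 0.13, adjusted p = 0.0939), Nop58 (-0.27 ± 0.12), Fbl (-0.26 ± 0.11) and Rrp9, all with lower values in RIPmOVA hosts. Both RIPmOVA libraries lay below both WT libraries for 15 members (41.7%), against 22.1% of all genes, and above them for 3 (8.33%), Ubtf, Heatr1 and Rrp12, against 19.4%. The highest log2 fold change was that of Utp20, 0.39 ± 0.32, and without OT-II library 1 of WT hosts it was -0.17. Without OT-II library 2 of WT hosts Wdr12 and Gnl3 passed the adjusted p, with -0.75 and -0.71 (limma, adjusted p = 0.0256 and 0.025).

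In DKO-labelled libraries 20 of 36 members had a log2 fold change above 0 in RIPmOVA over WT hosts, near the 54.4% of all genes, and the median was 0.02 against 0.03. By limma 0 passed the adjusted p, and 4 (11.1%) had an unadjusted p under 0.05, Rrp12, Ncl, Npm1 and Polr1b, against 17.6% of all genes. Both RIPmOVA libraries lay above all 3 WT libraries for 8 members (22.2%), near the 22.7% of all genes, and below them for 1, Rrp9, against 17.3%. Rrp12 had the highest difference, 0.35 ± 0.11 (adjusted p = 0.145), and Rrp9 the lowest, -0.18 ± 0.09. Rrp9 was at 17.3, 15.04 and 16.4 RPKM in WT hosts and 14.0 and 14.4 RPKM in RIPmOVA hosts. Leaving out DKO-labelled library 1 of RIPmOVA hosts turned the median to -0.030 with 13 members above 0, and leaving out DKO-labelled library 2 of WT hosts turned it to -0.023 with 17 above 0.

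**Figure D4:**
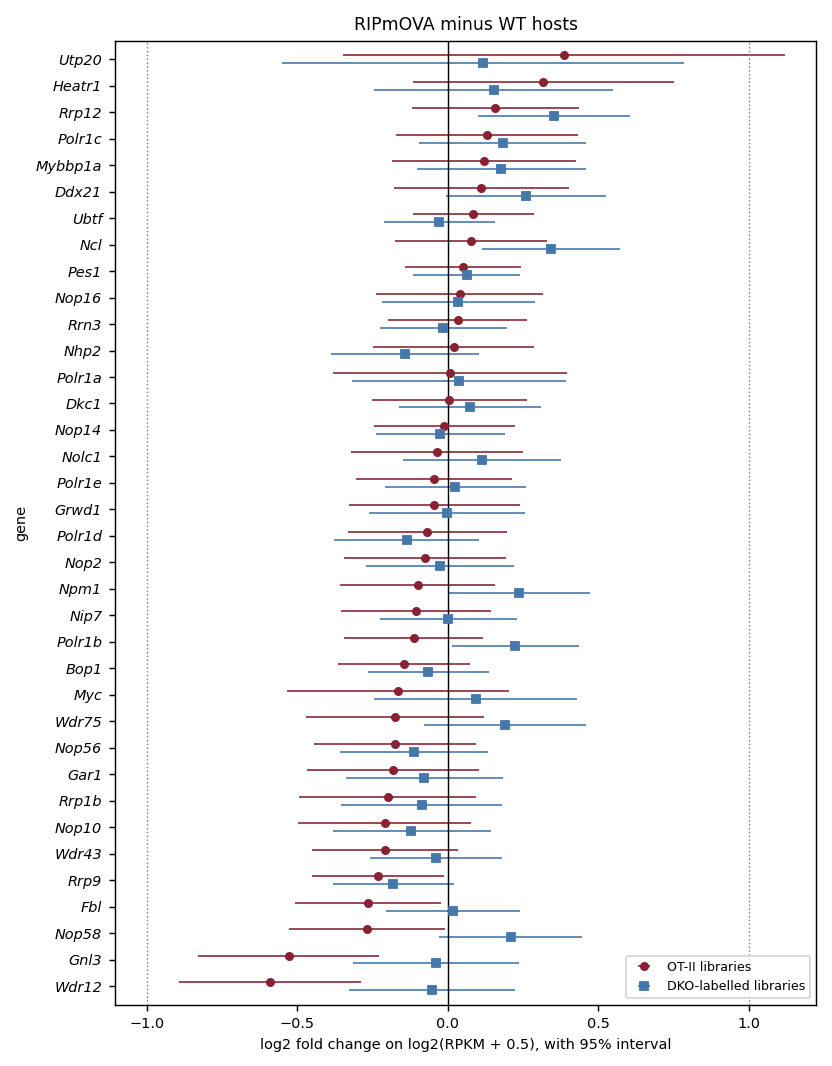
Log2 fold change of RIPmOVA over WT hosts (horizontal, on log2(RPKM + 0.5)) for each of the 36 genes (vertical), as circles for OT-II and squares for DKO-labelled libraries, with 95% intervals as bars. Most points lie within 0.3 of 0, Wdr12 and Gnl3 are lowest in OT-II libraries, and no point is ringed because none had an adjusted p of 0.05 or less.

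The interaction subtracts the OT-II host difference from the DKO-labelled one and tests whether the host difference depended on genotype. For 0 members was it past the adjusted p (limma), and 4 members (11.1%) had an unadjusted p under 0.05, against 9.32% of all genes. These were Wdr12 (0.54 ± 0.18, adjusted p = 0.468), Gnl3 (0.49 ± 0.18), Nop58 (0.48 ± 0.16) and Polr1b (0.34 ± 0.14). Log2 values were above 0 for 28 of 36 members, against 54.7% of all genes, with a median of 0.08 against 0.03. The median was 0.029 with 21 members above 0 without DKO-labelled library 2 of WT hosts, and 0.045 with 22 above 0 without DKO-labelled library 1 of RIPmOVA hosts. Leaving out other single libraries gave medians of 0.071 to 0.132. Utp20 had the lowest, -0.27 ± 0.44, a value that rests on OT-II library 1 of WT hosts and was 0.28 without it. The genotype differences in the 2 hosts are therefore not shown to differ for any single member.

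Pairs of cells from the same chimera share host and marrow transfer. Within chimeras, the DKO-labelled library was above the OT-II library for 33 and 33 of 36 members in the 2 RIPmOVA chimeras, against 54.9% and 56.6% of all genes. In the 2 WT chimeras with both genotypes it was above for 32 and 29 members, against 46.8% and 53.8%. In all 4 chimeras it was above for 23 members (63.9%), against 14.4% of all genes, and below for 0 members, against 12.9%. The 23 include Myc, Polr1a, Polr1b, Fbl, Nop58, Ncl, Npm1 and Ddx21. Ubtf and Polr1d were lower in the DKO-labelled library in 3 of 4 chimeras each, and the other 11 members in 1 of 4.

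Levels of different members should be compared with care. Members spanned from 1.83 RPKM (Utp20) to 119 RPKM (Nop10), but the exon lengths used for RPKM were 1.0 to 8.13 times the longest coding transcript of GENCODE M21, with a median of 1.82, and 16 members were over 2 times. Nop56 had the highest ratio, 8.13, and Myc had 3.56, so their reads were divided by more bases than that transcript holds. The same exon length divides a gene's reads in every library, so it cancels when libraries are compared. Also, 17 members overlap a gene on the opposite strand, among them Gnl3, Nop56 and Heatr1, and strand use in counting was not stated. In 6 members 19 small nucleolar RNA genes lie on the same strand.

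**Figure D5:**
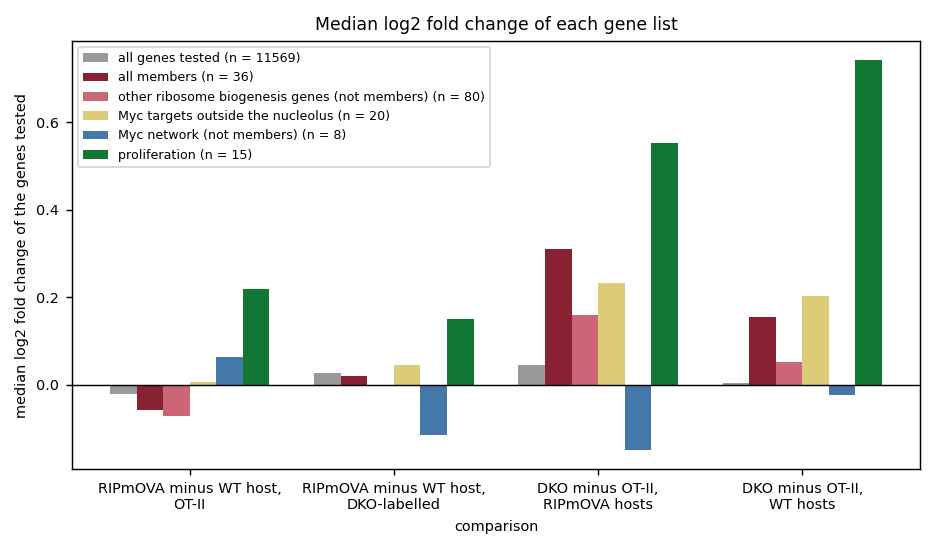
Median log2 fold change (vertical, on log2(RPKM + 0.5)) of the 36 genes and of 4 further gene lists beside all genes tested, in each of the 4 pairwise comparisons (horizontal). The 36 genes (dark red) have medians of 0.31 and 0.16 between genotypes and lie near 0 between hosts.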

How the data were processed

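RNA of 9 libraries was measured. According to the study's methods the authors made cDNA with SMART-seq v4, aligned reads with STAR to mm10 with GENCODE vM17, removed duplicates with Picard, counted reads on exons of Entrez genes with GenomicRanges, and tested groups with DESeq2, which needs counts. The submitters' notes name STAR and mm10. Versions of STAR and Picard and strand use are not given in the sources used here. The deposited values are RPKM, computed by the authors from exonic reads. Replicates are separate chimeras.

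Genes that reached 1 RPKM in 2 or more libraries entered the tests (11569, all 36 members among them). On log2(RPKM + 0.5), limma 3.58.1 (R 4.3.3) estimated the mean of each group over all 9 libraries (eBayes with trend, two-sided, Benjamini-Hochberg over all genes kept), and checked on simulated data. Fold changes on this scale understate changes of low genes. The call needed an adjusted p of 0.05 or less and an absolute log2 fold change of 1 or more. Permutation tests were not used, since exact two-sided p cannot be below 0.333 for 2 against 2 libraries or 0.2 for 2 against 3. Depth was recovered from exon lengths and RPKM steps, with low values read as whole within 0.1 of a read. A gene of 1 kb with 3 reads is at 0.12 to 0.193 RPKM, which covers counting error only. Python 3.11.15 with pandas 2.3.3, numpy 2.4.6 and matplotlib 3.10.9 was used for tables and plots.

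The members and lists were chosen with earlier results of these data known. Library values are given for Myc, for members past the adjusted p and for the 2 most abundant of each role, and the highest and lowest log2 fold change of each comparison is named. Values of Polr1a, Rrp12, Utp20, Heatr1, Wdr12, Gnl3 and Rrp9 were added after they were seen. Same-numbered OT-II and DKO-labelled libraries come from the same chimera by the labels, which pairs them. The correlation of their deviations from group means over genes was 0.006 and -0.239 in WT chimeras. It was -0.079 in RIPmOVA chimeras, where groups of 2 libraries give both chimeras the same value by construction. Positions and small nucleolar RNA genes are from GENCODE M21 (GRCm38, the assembly also called mm10) and promoter windows from RefSeq (GRCm38.p6). Alternatives were other pseudocounts, filters, scalings, fits, a replicate block, a sensory receptor covariate and omitted libraries.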

Additional observations from a re-analysis of the deposited data

How the results depend on the processing

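For DKO-labelled over OT-II libraries in RIPmOVA hosts, 2 members passed the adjusted p as reported, which is also the count of calls when the size criterion is dropped (2). The count was 5 with a filter at RPKM 5, 8 with quantile normalization, 0 with the sensory receptor covariate, and 11 without both WT-host libraries with most sensory receptor reads, an omission chosen after seeing the data. Without single libraries it ran from 0 to 6. The 6 came without either OT-II library of WT hosts, and the 0 without either OT-II library or without DKO-labelled library 1 of RIPmOVA hosts. With the covariate Polr1b and Nop58 kept their sign (0.73 and 0.68, limma, adjusted p = 0.151 and 0.247), the median of the members was 0.40 and that of the interaction 0.215. Of all genes, 20 then passed the adjusted p against 256, and the cause was not tested. The median without single libraries ran from 0.238 to 0.385 in RIPmOVA and from 0.124 to 0.205 in WT hosts. Under median-of-ratios scaling it was 0.27, with 33 members above 0, and under quantile normalization 0.36, with 34.

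In WT hosts the members past the adjusted p ran from 0 to 2 and the calls from 0 to 1 without single libraries, and between hosts in OT-II libraries the members past the adjusted p ran from 0 to 2. All of these came without OT-II library 2 of WT hosts. Sign changes concerned small or library-bound values. Rrn3 in RIPmOVA hosts was -0.002 (median-of-ratios), -0.007 (covariate) and -0.092 to 0.171 without single libraries, Nop14 was -0.021 to 0.212, and Polr1d was 0.052 with the covariate. Polr1d in WT hosts was -0.057 to 0.088 without single libraries and 0.098 without both libraries with most sensory receptor reads. Utp20 between hosts in OT-II libraries was -0.17 to 0.94 without single libraries and -0.17 without both. Its interaction was -0.82 to 0.28 without single libraries, 0.11 with the covariate and 0.39 without both. Myc between hosts in DKO-labelled libraries was -0.007 to 0.21 without single libraries.

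With the replicate block on chimera, Polr1b and Nop58 still passed (0.72 and 0.72, limma, adjusted p = 0.0404 and 0.0404), and the median of the members was 0.31 in RIPmOVA and 0.13 in WT hosts. The block changed no other call of a member, and 34 members were then above 0 in WT hosts. Where an omission left 1 library in a group, that library was assumed to vary like the other groups. Each group held 2 or 3 libraries, and between 332 and 1578 reads stood behind Utp20, the member with the lowest level.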

Other observations

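Other genes of the pathway had a lower median than the members. Of 80 further ribosome biogenesis genes, all of which passed the filter, 62 had a log2 fold change above 0 between DKO-labelled and OT-II libraries in RIPmOVA hosts (77.5%, against 56.5% of all genes). Their median was 0.16, against 0.31 for the members, and 0 passed the adjusted p (limma). An unadjusted p under 0.05 was found for 22 of the 80, against 21.4% of all genes. The highest, 0.825, was above that of any member and belonged to Mdn1, an ATPase of large subunit assembly that was named after its value was seen. Mdn1 is a long gene, with 26133 bases of exons in the deposited values. Genes with long transcripts stood higher in DKO-labelled libraries of RIPmOVA hosts, and the part of length in its value was not tested. Mdn1 was at 1.65 and 1.95 RPKM in OT-II and 3.45 and 3.70 RPKM in DKO-labelled libraries of RIPmOVA hosts. In WT hosts 50 were above 0 (62.5%, against 51.3% of all genes), with a median of 0.05. Between hosts the medians were -0.07 for OT-II and 0.00 for DKO-labelled cells.

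Of 11 genes of the Myc network 8 were tested. In DKO-labelled over OT-II libraries of RIPmOVA hosts 2 were above 0 (25%, against 56.5% of all genes). Mxd1, which competes with Myc for Max, rose in RIPmOVA over WT hosts in both genotypes. It was at 12.3 and 10.01 RPKM in OT-II libraries of WT hosts and 23.6 and 24.2 RPKM in those of RIPmOVA hosts, a rise of 1.07 ± 0.13 on the log2 scale (SE; limma gave an adjusted p = 0.00372). In DKO-labelled libraries it was at 8.02, 8.57 and 9.52 RPKM against 22.8 and 20.3 RPKM, a rise of 1.26 ± 0.12 (limma, adjusted p = 0.000772). The values of the hosts did not overlap in either genotype.

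Known Myc targets outside the nucleolus were listed with 20 genes. Of these, 18 (90%) were above 0 in DKO-labelled over OT-II libraries in each host. The share of all genes was 56.5% in RIPmOVA and 51.3% in WT hosts. Slc19a1, the reduced folate carrier, was at 4.14 and 3.62 RPKM in OT-II and 7.47 and 6.604 RPKM in DKO-labelled libraries of RIPmOVA hosts. That is a genotype difference of 0.78 ± 0.14 on the log2 scale (limma, adjusted p = 0.0252). Tfrc, the transferrin receptor, was at 9.52 and 9.96 RPKM in OT-II and 14.8 and 13.2 RPKM in DKO-labelled libraries of the same hosts (0.50 ± 0.10, limma, adjusted p = 0.0384). Odc1, an enzyme of polyamine synthesis, was higher in RIPmOVA than in WT hosts in both genotypes. It was at 5.55 and 5.93 RPKM in OT-II libraries of WT hosts and 12.6 and 14.3 RPKM in those of RIPmOVA hosts (1.16 ± 0.20, limma, adjusted p = 0.0255). In DKO-labelled libraries it was at 7.196, 7.84 and 8.66 RPKM against 32.1 and 19.6 RPKM (1.61 ± 0.18, limma, adjusted p = 0.00223).

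Of 16 proliferation genes 15 were tested. Of these, 0 passed the adjusted p between genotypes in either host (limma), and 9 had an unadjusted p under 0.05 in each. The share of all genes at that threshold was 21.4% in RIPmOVA and 7.89% in WT hosts. Their levels ranged widely. Mki67, a marker of cycling cells, was at 0.22 to 1.31 RPKM over the 9 libraries, whereas the replication genes Mcm2, Mcm4 and Pcna were at 21.0 to 42.7, 29.2 to 54.4 and 23.7 to 37.0 RPKM.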
